A study of Mus musculus with 14 samples.

Results

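The genes described here are 8 C-type lectins and lectin-like receptors, most of them known from macrophages: Mgl2, Clec10a, Mrc1, Clec4f, Clec7a, Clec4n, Clec4d and Clec2d. They were chosen by gene symbol, with earlier results of these data known. Every probe carrying one of these symbols was read, which gave 12 of the 25697 probes on the array and 8 of its 16593 named genes. Whole liver RNA of 14 mouse samples had been hybridised to Illumina mouse BeadChips, 1 array per sample. The labels give 4 groups: Alb-Cre with an IL-13 plasmid (n = 3), wild type with the IL-13 plasmid (n = 3), Alb-Cre with an EGFP plasmid (n = 4) and wild type with the EGFP plasmid (n = 4). In all groups the plasmid was an overexpression construct given by hydrodynamic delivery, an injection that carries DNA mainly into hepatocytes, and the liver was taken 1 week later. Alb-Cre mice express Cre recombinase under the promoter of the hepatocyte gene albumin, and the title of the series places this on a floxed IL4Ra background. The labels give neither the age of the mice nor, sample by sample, whether the wild-type mice carried the floxed allele. Separate mice are not stated either, so a p-value sets a difference against the spread among these samples, which may not be the spread between mice. Il4ra and its deletion were not analysed here. The comparison asks how far the response of these lectin genes to IL-13 differs when hepatocytes carry the Cre.

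C-type lectins bind sugars or other ligands through a shared fold, in many but not all of them with calcium. On myeloid cells they serve as endocytic or signalling receptors for microbes and for the body's own glycoproteins. IL-13 and its relative IL-4 act through receptors that share the IL-4 receptor alpha chain and activate the transcription factor STAT6. Mrc1, Clec10a and Mgl2 are widely used as marks of macrophages that have seen these cytokines, a state called alternative activation. In liver, resident macrophages are the Kupffer cells, of which Clec4f is a mark in mouse, and sinusoidal endothelial cells also make Mrc1. Mgl2 and Clec10a lie on chromosome 11 with no protein-coding gene between them. The neighbouring pair Clec4n and Clec4d, and Clec4f, Clec2d and Clec7a, lie on chromosome 6, and Mrc1 lies on chromosome 2.

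Promoter windows of the 2 members that rose most with IL-13 in wild type (Mgl2 and Mrc1), of the one that fell most (Clec4f) and of the one called in Alb-Cre and not in wild type (Clec7a) are shown for reference. They are from RefSeq, build GRCm38.p6, 300 bases each, running from 250 bases before the annotated start to 50 after it. Of the 8 members, 6 were in that table, Clec7a with 2 windows. The motifs searched, on both strands, were TTCNNNNGAA, the spacing favoured by STAT6; TTCNNNGAA, the spacing of other STAT factors; and GAGGAAG, a core of the myeloid factor PU.1. Capitals mark a match, and a PU.1 match on the other strand reads CTTCCTC. The Mgl2 window is chr11:70130107-70130406 on the plus strand, Mrc1 chr2:14229164-14229463 on the plus strand, Clec4f chr6:83656067-83656366 on the minus strand and Clec7a chr6:129472730-129473029 on the minus strand.
Mgl2: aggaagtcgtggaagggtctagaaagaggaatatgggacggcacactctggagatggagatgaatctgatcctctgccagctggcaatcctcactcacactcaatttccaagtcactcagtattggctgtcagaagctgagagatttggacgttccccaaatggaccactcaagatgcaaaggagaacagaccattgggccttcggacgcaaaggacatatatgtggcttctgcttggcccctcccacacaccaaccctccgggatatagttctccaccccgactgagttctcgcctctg
Mrc1: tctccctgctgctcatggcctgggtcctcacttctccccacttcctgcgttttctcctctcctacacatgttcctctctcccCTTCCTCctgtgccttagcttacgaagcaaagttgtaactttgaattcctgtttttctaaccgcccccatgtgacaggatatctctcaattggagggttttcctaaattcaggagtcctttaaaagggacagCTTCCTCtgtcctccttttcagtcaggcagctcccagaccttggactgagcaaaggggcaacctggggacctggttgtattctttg
Clec4f: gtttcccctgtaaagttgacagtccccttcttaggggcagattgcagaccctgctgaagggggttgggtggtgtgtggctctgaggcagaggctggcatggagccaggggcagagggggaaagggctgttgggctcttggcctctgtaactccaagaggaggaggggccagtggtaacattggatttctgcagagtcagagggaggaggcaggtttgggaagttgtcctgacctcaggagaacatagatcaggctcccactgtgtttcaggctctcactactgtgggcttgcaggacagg
Clec7a: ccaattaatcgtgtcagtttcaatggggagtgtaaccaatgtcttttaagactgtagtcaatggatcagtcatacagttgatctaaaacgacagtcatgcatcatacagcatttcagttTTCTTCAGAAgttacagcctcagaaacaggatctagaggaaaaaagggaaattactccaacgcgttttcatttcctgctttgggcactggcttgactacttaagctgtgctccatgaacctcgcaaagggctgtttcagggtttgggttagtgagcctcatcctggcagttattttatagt

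The STAT6 spacing occurred in 1 of the 6 members with a window, Clec7a, as TTCTTCAGAA, 131 to 122 bases before the start. It occurred in at least 1 window of 8.01% of all 27025 genes in the table, and in 6.95% of its 32851 windows. The PU.1 core occurred in 2 members, Mrc1 with 2 matches and Clec4d with 1, and in 15.4% of all genes and 13.6% of all windows. The other STAT spacing occurred in none of the 6 and in 9.55% of all genes and 8.3% of all windows. No match overlapped another. Mgl2, Clec4f and Clec2d held none of these letters, which says only that these strings are not in these windows.

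Between 11554 and 13261 probes were detected per array, the mean intensity was 283 to 354, and the correlation between arrays of the same group was 0.980 to 0.993. The hepatocyte gene Ttr was detected on all 14 arrays. Xist, transcribed from the inactive X, was undetected and the Y-linked Eif2s3y detected on the 3 Alb-Cre IL-13 arrays and on wild-type IL-13 replicate 3, and the reverse held on the other 10. In Alb-Cre this pattern therefore ran with the plasmid and cannot be told apart from it. With IL-13 the Y-linked pattern also ran largely with genotype, on 3 of 3 Alb-Cre arrays against 1 of 3 wild-type arrays. Genotype differences under IL-13 and differences of responses carry this limit too. Values fitted with Xist detection as a covariate are given for the Alb-Cre changes. The arrays lay on 2 slides, each holding every group. Values below are log2 of background-corrected, quantile-normalized intensity, and probes near 4.4 to 4.6 or less are at the detection limit. A probe counted as detected with a detection p under 0.05. A change was called at an adjusted p under 0.05 in a limma fit over 9711 genes (Benjamini-Hochberg), and changes are given ± SE. Of the 12 probes, 10 passed the filter of detection on at least 3 arrays and measured 7 members. The only Clec4d probe and 1 of 4 Clec7a probes were detected on no array.

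The members split into 2 sets that moved in opposite directions in wild-type liver. Of the 7 measured, Mgl2, Mrc1 and Clec10a rose with IL-13, Clec4f, Clec2d and Clec4n fell, and Clec7a was not called. That makes 6 called, where 40.7% of all genes were called, 21.5% higher and 19.2% lower. The IL-13 and EGFP arrays did not overlap for those 6, as for 43.5% of genes. In Alb-Cre liver Mgl2, Clec7a and Mrc1 rose and none fell, which makes 3 called, where 18.9% of all genes were called, 11.1% higher and 7.83% lower. The arrays did not overlap for these 3 and Clec2d, as for 28.9% of genes. The response differed between the genotypes for each of the 7, where 13.2% of all genes were called, 6.65% higher and 6.50% lower. That call failed in 20 of 24 other settings for Clec7a, in 5 of 24 for Clec2d and in 2 of 25 for Clec4n. Between Alb-Cre and wild-type livers that both had IL-13, each of the 7 also differed, where 21.9% of all genes were called, 10.7% higher and 11.2% lower. Of these calls, that of Clec4n failed in 3 of 25 other settings and that of Clec7a in 1 of 24. For each of the 7 these arrays did not overlap, as for 33.0% of genes. Between the genotypes with EGFP, 0 of 7 members and 0% of all genes were called by limma. At an unadjusted p under 0.05 there were 0 members and 364 genes, 3.75%, and 0 members had groups that did not overlap, against 2.80% of genes. The members' differences there lay between -0.14 and 0.17. Clec10a passed the filter only through the arrays where it was high, and Clec7a only with IL-13 arrays. The members were also chosen with earlier results of these data known. These counts therefore describe the members and are no evidence beyond them. The median change of the 7 with IL-13 was 0.08 in Alb-Cre and 0.16 in wild type, and of all genes -0.02 and 0.00, a figure in which opposite changes cancel. In whole tissue, fewer cells of a type and less RNA per cell cannot be told apart.

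**Figure D1:**
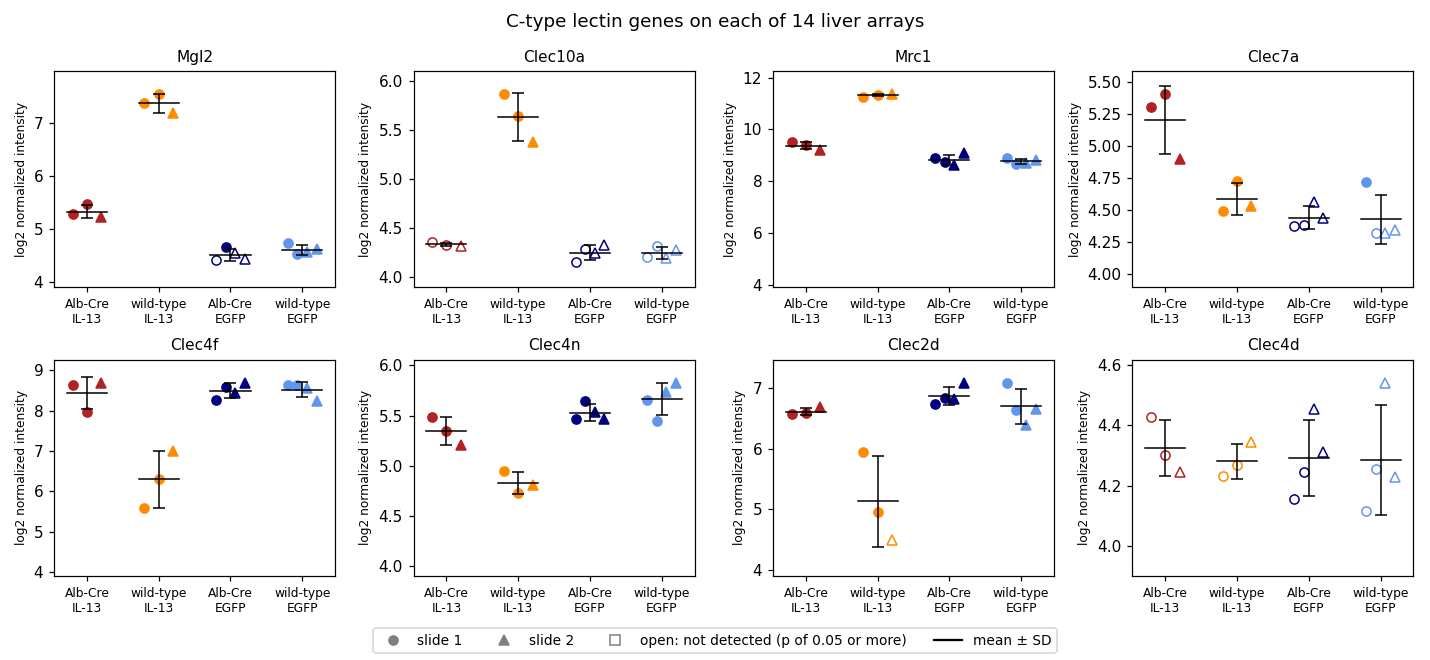
Log2 normalized intensity (vertical axis) of the probe standing for each gene on each of the 14 arrays, by group, with mean ± SD. Circles are slide 1, triangles slide 2, and open symbols were not detected. Mgl2, Clec10a and Mrc1 are highest and Clec4f, Clec4n and Clec2d lowest in wild-type IL-13 livers, Clec7a is highest in Alb-Cre IL-13 livers, and Clec4d is undetected throughout.

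Mgl2 encodes a galactose-type lectin of macrophages and dendritic cells that takes up glycoproteins carrying N-acetylgalactosamine. With IL-13 it measured 5.29, 5.47 and 5.23 in Alb-Cre livers, against 7.37, 7.55 and 7.20 in wild-type livers. With EGFP it measured 4.41, 4.66, 4.54 and 4.43 in Alb-Cre livers, against 4.74, 4.52, 4.57 and 4.62 in wild-type livers. The wild-type IL-13 arrays stood highest, the Alb-Cre IL-13 arrays came next, and the EGFP groups overlapped each other near the detection limit, with 1 of 4 Alb-Cre and 4 of 4 wild-type arrays detected. The rise with IL-13 was 0.82 ± 0.11 in Alb-Cre (1.77-fold, adjusted p = 6.17e-05), against 2.76 ± 0.11 in wild type (6.78-fold, adjusted p = 3.25e-11). The response in Alb-Cre minus that in wild type was -1.94 ± 0.16 (adjusted p = 1.87e-06). Between the genotypes under IL-13, Alb-Cre livers were 4.12-fold lower (adjusted p = 2.09e-08). Only 1.4% of genes had a larger change of either sign in wild type.

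Clec10a, which encodes the sister lectin MGL1, was detected on the 3 wild-type IL-13 arrays and on no other. With IL-13 it measured 4.36, 4.33 and 4.32 in Alb-Cre livers, against 5.87, 5.64 and 5.38 in wild-type livers. With EGFP the range was 4.16 to 4.33 in Alb-Cre and 4.19 to 4.32 in wild type. The wild-type IL-13 group stood apart from the other 3, which all lay at the detection limit. Since the other groups give only an upper bound, the rise in wild type was at least 2.16-fold (adjusted p = 6.54e-08), where the bound sets the mean of the IL-13 arrays against the lowest detected signal of each EGFP array or the probe's own value, whichever was higher. Expression in Alb-Cre IL-13 livers was at least 2.21-fold lower than in wild-type IL-13 livers (adjusted p = 1.50e-06). In Alb-Cre the fitted difference of 0.08 ± 0.11 lay between undetected groups and has no fold (adjusted p = 0.658). The response in Alb-Cre minus that in wild type was -1.29 ± 0.15 (adjusted p = 5.30e-05).

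Mrc1, the mannose receptor CD206, clears mannose-bearing glycoproteins and collagen fragments. It was detected on all 14 arrays, well above the limit. With IL-13 it measured 9.51, 9.40 and 9.22 in Alb-Cre livers, against 11.27, 11.33 and 11.37 in wild-type livers. With EGFP it measured 8.88, 8.73, 8.62 and 9.08 in Alb-Cre livers, against 8.89, 8.68, 8.70 and 8.82 in wild-type livers. Both IL-13 groups lay above their EGFP group without overlap, and the wild-type IL-13 arrays differed among themselves by only 0.05 (SD, n = 3). The rise was 0.55 ± 0.12 in Alb-Cre (1.46-fold, adjusted p = 0.00343), against 2.55 ± 0.12 in wild type (5.87-fold, adjusted p = 1.52e-10), a difference of responses of -2.01 ± 0.16 (adjusted p = 2.29e-06). With IL-13, Alb-Cre livers were 3.86-fold lower than wild-type livers (adjusted p = 5.27e-08). The array with the Y-linked pattern among the wild-type IL-13 livers had 11.37 for Mrc1 and 7.20 for Mgl2. The IL-13 groups did not overlap for either gene, so it had to lie outside the Alb-Cre range. This array therefore does not tell the pattern apart from genotype.

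The rise of Mrc1 in Alb-Cre was not called on slide 2 alone (0.36, adjusted p = 0.43) or with Xist detection as a covariate (0.48, adjusted p = 0.223). That covariate rests on wild-type IL-13 replicate 3, the single array that breaks the tie between pattern and group. The rise of Mgl2 in Alb-Cre was called in both settings (0.75 and 1.09). With the covariate the Alb-Cre difference was 0.46 for Clec10a (adjusted p = 0.122), -1.11 for Clec4f (adjusted p = 0.0748) and -0.15 for Clec4n (adjusted p = 0.75).

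Clec4f encodes a receptor of rodent Kupffer cells that binds galactose and N-acetylgalactosamine. With IL-13 its brighter probe measured 8.64, 7.97 and 8.70 in Alb-Cre livers, against 5.60, 6.30 and 7.00 in wild-type livers. With EGFP it measured 8.28, 8.59, 8.45 and 8.69 in Alb-Cre livers, against 8.63, 8.63, 8.56 and 8.24 in wild-type livers. The wild-type IL-13 arrays were the lowest and the most scattered (SD 0.70, n = 3), and the other 3 groups overlapped. In wild type Clec4f fell by 2.22 ± 0.25 on the log2 scale (4.66-fold, adjusted p = 3.87e-06). In Alb-Cre the difference was -0.07 with a 95% interval of -0.60 to 0.47 (adjusted p = 0.896). The responses differed by 2.15 ± 0.36 (adjusted p = 0.000895), and under IL-13 Alb-Cre livers were 4.41-fold higher than wild-type livers (adjusted p = 4.23e-05). The sign of the small Alb-Cre difference depended on the setting: it was 0.03 on the authors' log2 values, 0.01 with median scaling, 0.13 on slide 2 alone and 0.17 without Alb-Cre IL-13 replicate 2.

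The second Clec4f probe, ILMN_2876653, was dimmer and was detected on 2 of 3 Alb-Cre IL-13 arrays, 0 of 3 wild-type IL-13 arrays and all 8 EGFP arrays. It fell at least 1.65-fold in wild type (adjusted p = 0.000742 over 14109 probes, of which 38.1% were called). In Alb-Cre it averaged 4.71 ± 0.29 with IL-13 (SD, n = 3) and 5.17 ± 0.38 with EGFP (SD, n = 4), which was not called (adjusted p = 0.114). Its difference of responses, 0.51 ± 0.27, was not called either (adjusted p = 0.261). The 2 probes thus both fell in wild type, and the difference between genotypes was called on the brighter one alone.

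**Figure D2:**
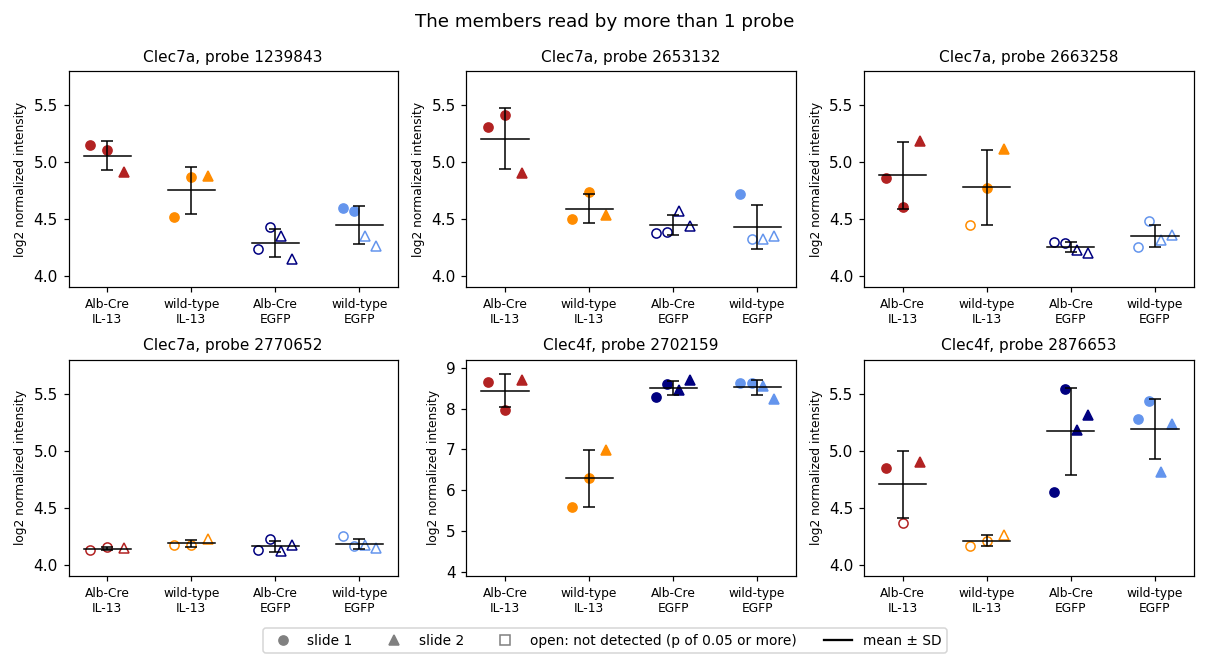
Log2 normalized intensity (vertical axis) on each array for the 4 Clec7a probes and the 2 Clec4f probes, by group, with mean ± SD. Circles are slide 1, triangles slide 2, and open symbols were not detected. Both Clec4f probes are lowest in wild-type IL-13 livers, 3 Clec7a probes are higher in Alb-Cre IL-13 than in Alb-Cre EGFP livers, and probe ILMN_2770652 stays between 4.12 and 4.25. On Clec7a probe ILMN_2663258 wild type rose too and the IL-13 groups overlap. Between the genotypes under IL-13, only ILMN_2653132 of the Clec7a probes was called.

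Clec4n encodes dectin-2, a receptor for fungal mannans that signals through the adaptor chain made by Fcer1g. With IL-13 it measured 5.49, 5.35 and 5.21 in Alb-Cre livers, against 4.95, 4.73 and 4.80 in wild-type livers. With EGFP it measured 5.46, 5.64, 5.54 and 5.47 in Alb-Cre livers, against 5.66, 5.45, 5.73 and 5.83 in wild-type livers. The wild-type IL-13 arrays lay below all others, and the Alb-Cre groups overlapped. In wild type Clec4n fell by 0.84 ± 0.11 (1.79-fold, adjusted p = 1.67e-05), and in Alb-Cre the difference was -0.18 ± 0.11 (adjusted p = 0.29), with a sign that turned to 0.01 under median scaling and a value of 0.00 on the authors' log2 values. The difference of responses was 0.66 ± 0.16 (adjusted p = 0.0113), and it was not called on slide 1 alone (0.58, adjusted p = 0.221) or slide 2 alone (0.68, adjusted p = 0.145). With IL-13, Alb-Cre livers were higher than wild-type livers by 0.52, which was not called on slide 1 alone (0.58, adjusted p = 0.0503), slide 2 alone (0.41, adjusted p = 0.241) or the authors' log2 values (0.16, adjusted p = 0.0536). Clec4d, the neighbouring gene, encodes a receptor for mycobacterial cord factor. Its single probe lay between 4.12 and 4.54 and was undetected on all 14 arrays, so nothing can be said of its change.

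Clec2d differs from the other members in that its product, Clr-b, is made by many cell types and is itself a ligand, recognised by an inhibitory receptor of natural killer cells in mouse. With IL-13 it measured 6.57, 6.58 and 6.68 in Alb-Cre livers, against 5.94, 4.95 and 4.49 in wild-type livers. With EGFP it measured 6.73, 6.84, 6.81 and 7.07 in Alb-Cre livers, against 7.08, 6.63, 6.40 and 6.66 in wild-type livers. The wild-type IL-13 arrays were lowest and spread widely (SD 0.74, n = 3), and the lowest of them, replicate 3, was not detected. In wild type Clec2d fell by 1.56 ± 0.25 (2.96-fold, adjusted p = 9.84e-05), and without that replicate by 1.24 (adjusted p = 0.000435). In Alb-Cre the IL-13 arrays lay just below the EGFP arrays, but the difference of -0.25 ± 0.25 was not called (adjusted p = 0.534), and with Xist detection as a covariate it was 0.71 (adjusted p = 0.283). The difference of responses was 1.31 ± 0.35 (adjusted p = 0.021). It was not called in 5 of 24 other settings: on slide 1 alone (1.20, adjusted p = 0.191), on the authors' log2 values (0.56, adjusted p = 0.0629), with no detection filter (1.31, adjusted p = 0.0521), and without Alb-Cre IL-13 replicate 3 (1.27, adjusted p = 0.0527) or wild-type IL-13 replicate 2 (1.22, adjusted p = 0.0525). With IL-13, Alb-Cre livers were 2.79-fold higher than wild-type livers (adjusted p = 0.000855), and this was called in each of the 24 other settings that measured it.

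Clec7a encodes dectin-1, a receptor for beta-glucans of fungal cell walls. Its brightest kept probe, ILMN_2653132, measured 5.30, 5.41 and 4.90 with IL-13 in Alb-Cre livers, against 4.50, 4.73 and 4.53 in wild-type livers. With EGFP it measured 4.38, 4.39, 4.57 and 4.44 in Alb-Cre livers, against 4.72, 4.32, 4.33 and 4.35 in wild-type livers. The Alb-Cre IL-13 arrays lay above all others, and the other 3 groups overlapped. Of the EGFP arrays, 0 of 4 Alb-Cre and 1 of 4 wild-type ones were detected, so the rise in Alb-Cre was at least 1.57-fold (adjusted p = 0.00073). In wild type the difference was 0.16 with a 95% interval of -0.13 to 0.44 (adjusted p = 0.378). With IL-13, Alb-Cre livers were 1.53-fold higher than wild-type livers (adjusted p = 0.00566).

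The difference between the Clec7a responses lay at the threshold. It was 0.60 ± 0.19, had an adjusted p of 0.047 and was not called in 20 of 24 other settings. Taken probe by probe, 3 of 3 kept probes rose in Alb-Cre, where 17.4% of all probes were called, by at least 1.57-fold, 1.42-fold and 1.26-fold. None of the 3 was detected on an Alb-Cre EGFP array, and each passed the filter only with IL-13 arrays. This count therefore describes the probes and is no further evidence. In wild type ILMN_2663258 rose too (at least 1.20-fold, adjusted p = 0.0331 over all probes), and with the mean of the kept probes the gene was called there (0.30, adjusted p = 0.0232). The difference of responses was not called on any of the 3 probes at probe level (11.6% of all probes were), with adjusted p of 0.0511, 0.108 and 0.618. Between the genotypes under IL-13, 1 of the 3 was called, where 19.5% of all probes were. The rise in Alb-Cre itself was not called on slide 2 alone (0.40, adjusted p = 0.249) or with Xist detection as a covariate (0.84, adjusted p = 0.0572), and the difference between genotypes under IL-13 was not called on slide 2 alone (0.37, adjusted p = 0.292).

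The 6 wild-type changes kept their direction on each slide. Slide 2 holds 1 wild-type IL-13 array, the one with the Y-linked pattern. On slides 1 and 2 the wild-type changes were 2.83 and 2.60 for Mgl2, 1.49 and 1.14 for Clec10a and 2.52 and 2.61 for Mrc1. They were -2.69 and -1.41 for Clec4f, -0.72 and -0.98 for Clec4n and -1.41 and -2.04 for Clec2d. Without background correction the sizes were smaller while the calls held: 1.20 for Mgl2, 0.42 for Clec10a, 2.34 for Mrc1, -1.44 for Clec4f, -0.26 for Clec4n and -0.63 for Clec2d. In Alb-Cre the rise of Mgl2 was then 0.22 (adjusted p = 0.00575). The Alb-Cre minus wild-type differences under IL-13 were then -1.01 for Mgl2, -0.38 for Clec10a, -1.82 for Mrc1, 1.38 for Clec4f, 0.15 for Clec4n and 0.58 for Clec2d, all called. The wild-type IL-13 array with the Y-linked pattern lay outside the range of the Alb-Cre IL-13 arrays for each of the 7 genes. That follows from the 2 groups not overlapping, and 1 array cannot tell the pattern apart from genotype. On Clec7a probe ILMN_2663258 this array read 5.11, inside the Alb-Cre IL-13 range of 4.60 to 5.19.

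**Figure D3:**
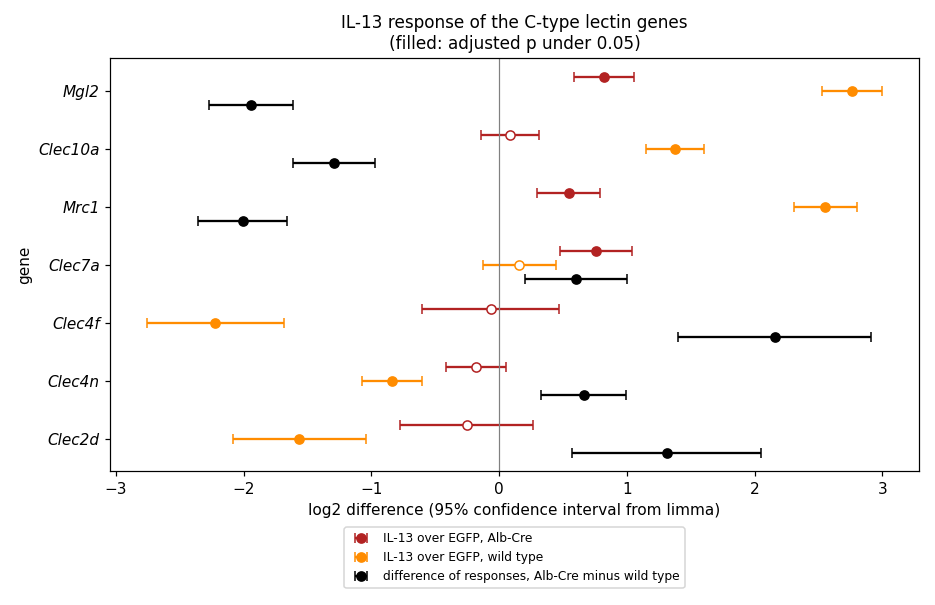
Log2 difference (horizontal axis) with limma's 95% confidence interval for the 7 measured genes: IL-13 over EGFP in Alb-Cre, IL-13 over EGFP in wild type, and the Alb-Cre response minus the wild-type response. Filled points passed an adjusted p of 0.05. The wild-type responses of Mgl2 (2.76) and Mrc1 (2.55) lie far right of the Alb-Cre ones (0.82 and 0.55), and the difference intervals of all 7 leave out 0, although that of Clec7a was called in few other settings.

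By group mean, Mgl2 and Mrc1 were ordered wild-type IL-13, Alb-Cre IL-13 and then the EGFP groups, which did not differ beyond their spread. Clec10a stood above the detection limit in wild-type IL-13 alone. Clec4f, Clec4n and Clec2d were lowest in wild-type IL-13, and their other 3 groups did not differ by the tests made. The genes whose pattern over the 14 arrays lay nearest to a member were found by the root mean square difference of log2 values, each gene centred on its own mean. Nearest to Mgl2 were Ch25h, which encodes cholesterol 25-hydroxylase (0.202), Csf2rb2, a beta chain of the mouse IL-3 receptor (0.215), and Mrc1 (0.216). Nearest to Mrc1 were Hilpda, a lipid droplet protein (0.159), Ch25h (0.165) and the transcription factor gene Klf4 (0.197). These distances compare with 1.12 for Mgl2 and 1.00 for Mrc1 from their own means, and a rise near that of the member fixes much of the likeness. Ch25h rose by 0.44 in Alb-Cre and 2.58 in wild type. Nearest to Clec10a were Tmed4 (0.156), Adam8 (0.166) and Sphk1 (0.168).

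Among the falling members, Clec4f lay nearest to Insig1, which holds back sterol synthesis (0.249), the cytochrome P450 gene Cyp4f14 (0.272) and Ifi27 (0.305). Insig1 had differences of -0.20 in Alb-Cre and -2.20 in wild type. Clec4n lay nearest to F13b (0.130), which encodes a subunit of coagulation factor XIII, Armc6 (0.130) and Cab39l (0.132). Clec2d lay nearest to Plekha6 (0.301), Emc9 (0.304) and the chaperone gene Dnajb1 (0.305), and Clec7a to the endothelial factor gene Sox17 (0.123), Nabp1 (0.147) and Cotl1 (0.154). No other member was among the 3 nearest genes of a falling member or of Clec7a.

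Other C-type lectin receptors did not share one direction. Of 16 measured among 39 with a probe, 5 rose and 3 fell in Alb-Cre, and 7 rose and 3 fell in wild type, with medians of -0.02 and -0.03 beside -0.02 and 0.00 for all genes. Clec4g, a lectin of sinusoidal endothelium, changed by -1.93 ± 0.31 in Alb-Cre (adjusted p = 0.000377) and -2.51 ± 0.31 in wild type (adjusted p = 1.08e-05). Cd248, which encodes endosialin of stromal cells, rose by 0.95 ± 0.14 in Alb-Cre (adjusted p = 0.000123) and 1.80 ± 0.14 in wild type (adjusted p = 4.97e-08). The response differed between genotypes for 3 of these 16. Of 9 soluble lectins measured, 1 rose and 1 fell in Alb-Cre, and 3 rose and 1 fell in wild type. The one that fell in both was Mbl2, a mannose-binding lectin of plasma made by hepatocytes, with changes of -0.66 ± 0.14 in Alb-Cre (adjusted p = 0.00352) and -3.07 ± 0.14 in wild type (adjusted p = 1.61e-10).

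Of 14 genes measured downstream of the signalling lectins, 6 rose and 0 fell in Alb-Cre, and 6 rose and 0 fell in wild type, with medians of 0.35 and 0.20. Prkcd, the kinase that carries the dectin-1 signal to the CARD9 complex, rose by 0.94 ± 0.12 in Alb-Cre (adjusted p = 5.24e-05) and 1.02 ± 0.12 in wild type (adjusted p = 7.86e-06). Bcl10, a member of that complex, rose by 0.44 ± 0.12 in Alb-Cre (adjusted p = 0.0195) and 0.99 ± 0.12 in wild type (adjusted p = 9.88e-06). Il1b, the cytokine gene at the end of this route, rose by 1.51 ± 0.27 in Alb-Cre (adjusted p = 0.000812) and had a difference of -0.10 ± 0.27 in wild type (adjusted p = 0.809). The receptor partners Syk and Fcer1g, and Malt1, were detected on no array.

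Of 18 measured genes of alternative activation other than the members, 8 rose and 0 fell in Alb-Cre, and 13 rose and 1 fell in wild type, with medians of 0.40 and 1.50. Retnla, which encodes the secreted protein RELMα, rose at least 137-fold in Alb-Cre (adjusted p = 1.43e-13) and at least 198-fold in wild type (adjusted p = 5.31e-14). Chil3, a chitinase-like protein, rose at least 10.9-fold in Alb-Cre (adjusted p = 1.28e-07) and at least 168-fold in wild type (adjusted p = 1.58e-11). The response was smaller in Alb-Cre for 5 of the 18 and larger for 0. This list too was chosen with earlier results of these data known, so the counts describe its genes only.

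Markers of the cells that could carry these lectins were counted in the same way. Of 11 Kupffer cell markers measured, 3 rose and 0 fell in Alb-Cre, and 6 rose and 2 fell in wild type, where Clec4f fell. The 2 that fell in wild type were Nr1h3 (-0.78, adjusted p = 0.00011) and Timd4 (-0.67, adjusted p = 0.00413). In Alb-Cre each had a difference of -0.23, which was not called. C1qc, a chain of complement C1q, rose by 1.41 ± 0.12 in Alb-Cre (adjusted p = 3.32e-07) and 1.73 ± 0.12 in wild type (adjusted p = 1.28e-08), and Cd163, the haptoglobin-haemoglobin receptor, had a difference of 0.21 ± 0.21 in Alb-Cre (adjusted p = 0.568) and rose by 1.98 ± 0.21 in wild type (adjusted p = 2.28e-06). Cd163, like Chil3 among the monocyte markers, is also in the list of alternative activation genes. The summed intensity of the Kupffer cell markers was 6588 to 7196 in Alb-Cre IL-13, 6430 to 8357 in wild-type IL-13, 5311 to 6125 in Alb-Cre EGFP and 5448 to 5821 in wild-type EGFP livers. Cd5l, another Kupffer cell marker, was detected on no array. Of 13 markers of monocytes and recruited macrophages, 9 rose and 0 fell in Alb-Cre, and 7 rose and 2 fell in wild type. Their summed intensity was 4077 to 5527 in Alb-Cre IL-13, 9666 to 15070 in wild-type IL-13, 2482 to 3656 in Alb-Cre EGFP and 2948 to 3561 in wild-type EGFP livers. The sum was highest in wild-type IL-13 livers, but its members were divided. Between Alb-Cre and wild-type livers under IL-13, Cd14 (-5.49), Chil3 (-3.91), Ccl6 (-2.50) and Lgals3 (-0.76) were called lower, and Cx3cr1 (1.18), Lyz1 (1.15), Lyz2 (0.98) and Ly6c1 (0.54) were called higher. The median change of the 13 with IL-13 was 0.80 in Alb-Cre and 0.54 in wild type. Ccr2 and Itgam of this list were detected on no array.

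Of 11 neutrophil markers, 9 rose and 0 fell in Alb-Cre, and 9 rose and 0 fell in wild type. The neutrophil sum was 4557 to 15100 in Alb-Cre IL-13, 15910 to 22740 in wild-type IL-13, 358 to 3156 in Alb-Cre EGFP and 693 to 3093 in wild-type EGFP livers. The sums of the IL-13 groups did not overlap, but only 1 of the 11 markers was called between them, Retnlg (-0.84), lower in Alb-Cre. The response differed between genotypes for 0 of the 11. Of 9 dendritic cell markers, 7 rose in Alb-Cre and 5 in wild type, none fell, and the rise was larger in Alb-Cre for 5. Those 5 were Cd83 and the class II genes H2-Ab1, H2-Aa, H2-Eb1 and Cd74. The difference of responses was not called for Batf3 (-0.28), Zbtb46 (-0.22), Irf8 (0.32) or Siglech (0.27). The sum of all 9 was 2350 to 3615 in Alb-Cre IL-13, 1364 to 1508 in wild-type IL-13, 771 to 917 in Alb-Cre EGFP and 795 to 908 in wild-type EGFP livers. On its brightest kept probe Clec7a was likewise highest in Alb-Cre IL-13 livers. On probe ILMN_2663258 the 2 IL-13 groups overlapped (difference 0.10, adjusted p = 0.723 over all probes). Itgax, Flt3 and Xcr1, which define dendritic cells, were detected on no array. Cd74, the invariant chain of class II molecules, rose by 2.18 ± 0.14 in Alb-Cre (adjusted p = 1.94e-08) and 1.10 ± 0.14 in wild type (adjusted p = 1.32e-05).

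Of 15 endothelial markers, 3 rose and 3 fell in Alb-Cre, and 3 rose and 6 fell in wild type. Their sum was 2989 to 4086 in Alb-Cre IL-13, 3078 to 4775 in wild-type IL-13, 5057 to 5837 in Alb-Cre EGFP and 5035 to 5342 in wild-type EGFP livers. Of 11 hepatocyte markers, 0 rose and 1 fell in Alb-Cre, and 1 rose and 7 fell in wild type. Their sum was 63210 to 77350 in Alb-Cre IL-13, 56610 to 61740 in wild-type IL-13, 76520 to 82090 in Alb-Cre EGFP and 78730 to 86580 in wild-type EGFP livers. It was lowest in wild-type IL-13 livers, as were Clec4f, Clec4n and Clec2d. Of the 2 eosinophil markers measured, 2 rose in Alb-Cre and 0 in wild type. Of 5 T and natural killer cell markers, 1 fell in each genotype, and the 1 B cell marker measured was not called. Cd4, Cd8a, Ms4a1, Pax5 and Siglecf were detected on no array. The part of these cell types in the lectin values was not tested.

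**Figure D4:**
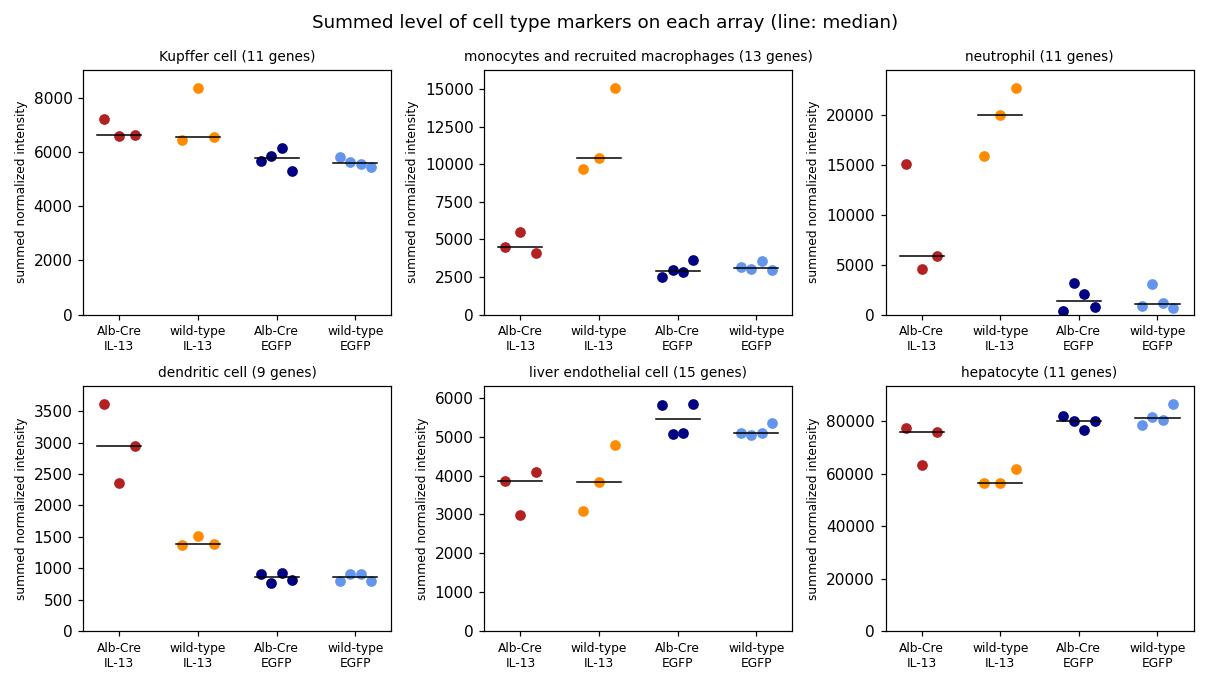
Summed normalized intensity on a linear scale (vertical axis) of the measured markers of 6 cell types on each array, by group, with the median as a line. The monocyte and macrophage sum is highest in wild-type IL-13 livers (9666 to 15070), although 4 of its 13 markers were called higher and 4 lower in Alb-Cre IL-13 than in wild-type IL-13 livers. The dendritic cell sum is highest in Alb-Cre IL-13 livers (2350 to 3615). It includes class II genes, and Batf3, Zbtb46, Irf8 and Siglech of that list were not called between the IL-13 groups. The hepatocyte sum is lowest in wild-type IL-13 livers (56610 to 61740).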

How the data were processed

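Whole liver RNA of 14 samples was measured on 14 Illumina BeadChip arrays. The deposited table holds 1 intensity on a linear scale and 1 detection p-value per probe and array, per the file headers, exported with GenomeStudio 2011.1, per the submitters' processing notes. A log2 table deposited by the authors equals the log2 intensity plus 1 constant per array (largest deviation 6.57e-05), with every array's median at 8.97, so it is not background-corrected. Its arithmetic was found from the values, and other steps are not given in the sources used here.

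In R 4.3.3, limma 3.58.1 (neqc) took the background from the detection p-values, applied normexp (offset 16) and quantile normalization, and gave log2 values. Probes with a detection p under 0.05 on at least 3 arrays were kept (14109 of 25697). Symbols came from the platform's gene table (23978 probes with 1 symbol, 0 with several, 1719 with none), and 23962 gene IDs matched RefSeq of GRCm38.p6, changing 0 symbols. The probe with the highest mean stood for a gene (9711 genes). Groups came from the titles, with replicate numbers from the titles, which for the wild-type IL-13 samples differ from those in the descriptions. A limma fit with 1 mean per group (10 residual degrees of freedom) gave 5 two-sided contrasts, with Benjamini-Hochberg adjustment over all genes or all probes. The number of arrays limits the precision. Neither replicate arrays nor others were identical (0 pairs). The fit was tested on simulated data. Promoters and figures used Python 3.11.15 with pandas 2.3.3 and matplotlib 3.10.9.

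The genes named are the 8 members, the 3 nearest patterns of each called member, and some of the 2 largest called changes of each list per IL-13 contrast. Monocyte and neutrophil markers called between genotypes under IL-13, list genes detected on no array and check genes are also named. So are the Kupffer cell markers that fell in wild type and all measured dendritic cell markers. Clone names were passed over. Members and lists were chosen with earlier results of these data known. Alternatives covered the authors' log2 values, background, scaling, filters, probe choice, slide, replicate number, Xist detection and each array left out. Fits on fewer arrays used the same normalized values and genes. On slide 2 alone each IL-13 group has 1 array, assumed to vary like the EGFP groups.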

Additional observations from a re-analysis of the deposited data

Results flagged for a closer look

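The responses to IL-13 in Alb-Cre and wild type differed, by the interaction contrast of the limma fit, for each of the 7 measured lectin genes. Of all genes, 13.2% were called. The response in Alb-Cre minus that in wild type was -1.94 for Mgl2, -1.29 for Clec10a, -2.01 for Mrc1, 2.15 for Clec4f, 0.66 for Clec4n, 1.31 for Clec2d and 0.60 for Clec7a on the log2 scale. Mgl2, Clec10a, Mrc1 and Clec4f were called in every alternative that measured them. The call failed in 20 of 24 alternatives for Clec7a, in 5 of 24 for Clec2d and in 2 of 25 for Clec4n. For Clec10a the value rests on groups at the detection limit. Clec10a and Clec7a passed the detection filter only with IL-13 arrays. A single array stood apart for Clec7a: on probe ILMN_2653132, wild-type EGFP replicate 1 was the highest of its group, and its gap to the next array was 0.929 of the group's range, above the 95% critical value of Dixon's test for 4 samples. Of 20 such groups tested this was 1, and chance gives about 1 in 20.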

How the results depend on the processing

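In wild type, 6 members were called in each fit that left out 1 array, and in Alb-Cre 3. For the difference of responses 6 were called in each of these fits, with Clec7a or Clec2d lost, and between genotypes under IL-13 7. Genes called ranged over these fits from 3431 to 3981 in wild type (3952 with all arrays), 1332 to 2069 in Alb-Cre (1840), 869 to 1349 for the difference (1277) and 1476 to 2095 between genotypes under IL-13 (2130). Requiring detection on all arrays, which leaves Clec4f, Mrc1 and Clec4n, gave 3 members in wild type, 1 in Alb-Cre, 3 for the difference and 3 between genotypes under IL-13. Slide 1 alone called 851 genes in Alb-Cre, 226 genes and 4 members for the difference, and 922 genes between genotypes under IL-13. Slide 2 alone called 2449 genes in wild type, 620 genes and 1 member in Alb-Cre, 597 genes for the difference, 937 between genotypes under IL-13 and 1 with EGFP. These fits hold fewer arrays. With Xist detection as a covariate, 815 genes and 1 member (Mgl2, 1.09) were called in Alb-Cre and 1257 genes between genotypes under IL-13, and the cause was not tested. The sign in Alb-Cre turned for Clec4f (authors' log2 values 0.03, median scaling 0.01, slide 2 alone 0.13, and -0.20 to 0.17 when 1 array was left out), Clec4n (0.00 and 0.01 in the first 2 of these settings) and Clec2d (Xist covariate 0.71), none of them called. Among the calls in Alb-Cre, 58.7% of genes were higher, against 78.7% on the authors' log2 values and 76.4% with median scaling. For the difference these shares were 50.6%, 69.8% and 70.1%. With the replicate block 6 members were called in wild type, 3 in Alb-Cre, 6 for the difference, 7 between genotypes under IL-13 and 0 with EGFP. Genes called under the replicate block were 3830, 1633, 1240, 2098 and 0. With slide as a block no member call changed. Samples sharing a number correlated in their deviations by -0.121 to 0.283, so the numbers were not taken as pairs. Signal near background limits Clec10a, Clec7a, Clec4d and the EGFP values of Mgl2.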
